A study of Mus musculus with 24 samples.

Results

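The genes described here encode RNA polymerase II (Pol II), its general transcription factors and the Mediator complex, followed through the conversion of mouse 3T3-L1 fibroblasts into adipocytes. They were chosen by symbol alone: every gene named *Polr2* with a letter from a to m, *Gtf2a*, *Gtf2b*, *Gtf2e*, *Gtf2f* or *Gtf2h*, *Med* with a number, or *Taf* with a number. This took 78 of the 26995 gene symbols in the 2 count tables. The rule reads names only, and where a gene has several entries the one with the most total reads stands for it. Of the 78 genes, 75 had enough total reads to be tested and 48 had enough labelled reads.

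3T3-L1 is a line of mouse embryo fibroblasts committed to the fat lineage, which turn into lipid-filled adipocytes when treated with dexamethasone, 3-isobutyl-1-methylxanthine, insulin and fetal bovine serum. All libraries came from this single line. Cells received DMSO, the solvent control, or 0.5 µM ML-792, an inhibitor of the enzyme that starts conjugation of the small protein modifier SUMO, and were collected at day −2, before induction, and at days 1, 3 and 7 after it. The induction medium was exchanged at day 3 for a maintenance medium that held insulin and serum only. Before collection, RNA was labelled for 45 min with 100 µM 4-thiouridine, and each of the 8 conditions had 3 libraries, named A, B and C. Each library gave 2 counts per gene: all reads from the 3′ end of the mRNA (QuantSeq, "total reads"), and the subset with at least 1 T-to-C conversion, which marks RNA made during the labelling (SLAMseq, "labelled reads").

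Pol II transcribes the protein-coding genes. It is placed at promoters by the general factors, in which TFIID, built from the TATA-binding protein and the TBP-associated factors (TAFs), recognizes the promoter, TFIIA and TFIIB stabilize the assembly and bring in the polymerase, and TFIIE, TFIIF and TFIIH prepare and open the DNA. Mediator, with its head, middle and tail modules held on a scaffold subunit, connects this assembly to activators bound at enhancers, and a detachable kinase module modulates the contact. In fat cells the Mediator subunit MED1 is known as a partner of the adipogenic nuclear receptor PPARγ, and TAF8 and TAF7L have been studied in adipogenesis. The symbol rule also takes a few genes that carry a TAF name but work elsewhere: *Taf1a* to *Taf1d* serve the Pol I promoter factor SL1, *Taf5l* and *Taf6l* belong to acetyltransferase complexes, and *Taf15* encodes an RNA-binding protein. TBP itself and the kinases of TFIIH and Mediator fall outside it.

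Total reads per library ran from 13554718 to 27013352 and labelled reads from 115709 to 820046, of which the 78 genes took 37527 to 84917 and 339 to 2331. The 7 adipocyte markers, among them *Adipoq* and *Fabp4*, summed to 22256 to 23860 normalized counts in the DMSO libraries at day −2 and to 628090 to 703367 at day 7, and all 7 were higher at days 3 and 7 in the edgeR test. All 5 fibroblast markers were lower at those days, falling from between 276009 and 334802 to between 25102 and 37624 at day 7. The 2 markers of dividing cells were *Top2a* and *Mki67*. In DMSO their sum was 1293 to 1474 before induction, 6770 to 10029 on day 1 and 286 to 387 by day 7. Most of it was *Top2a*, whose mean went from 1313 to 8604 on day 1 and 2428 on day 3. *Mki67* had 64.3 to 91.3 before induction, 55.7 to 161 on day 1 and 10.6 to 76.1 on day 3. Both later ranges overlapped the first. In the edgeR test 1 of the 2 was higher on days 1 and 3, and both were lower by day 7. The part of dividing cells in the results below was not tested. Of 4 markers of blood cells, macrophages and endothelium, *Ptprc* was at 0 in every library, *Adgre1* and *Cdh5* were at 0 in all DMSO libraries and reached 6.79 and 5.97 normalized counts with ML-792, and *Pecam1* reached 19.7. The B libraries stood apart from the A and C libraries of the same conditions along the main axis of spread between replicates, so counts of genes are also given without them. A, B and C were biological replicates according to the study's methods. In bulk samples such as these, fewer cells of a type and less RNA per cell cannot be told apart.

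The question put to total reads was which components changed in level as the control cells differentiated. Relative to day −2, 11 of the 75 tested genes rose and none fell at day 1 (2 were lower at an unadjusted p under 0.05, and 0 by DESeq2), 15 rose and 3 fell at day 3, and 7 rose and 4 fell at day 7 (edgeR quasi-likelihood test, adjusted p under 0.01 over all entries of the table). Among all 13331 genes tested, 7.61% were higher and 9.36% lower at day 1, 17.9% and 18.5% at day 3, and 19.3% and 19.1% at day 7. The shares for the transcription genes were thus 14.7% higher at day 1, close to the background at 20% higher and below it at 4% lower at day 3, and below it in both directions at day 7, at 9.33% and 5.33%. Over the 75 genes the median log2 fold changes of the 3 days were 0.27, 0.31 and 0.05, beside 0.04, 0.06 and 0.00 over all genes. At day 1, 61 of the 75 genes had a value above 0, against 52.4% of all genes, and 5 lay outside the range that held the middle 80% of genes, from −1.37 to 1.09. At day 7, when that range ran from −2.21 to 1.95, none of the 75 lay outside it. Over the 3 days 25 genes changed in at least 1 comparison and 50 in none. The share of all genes called in at least 1 of the 3 comparisons is not given here. It cannot be below the 38.4% of all genes called in either direction at day 7 alone, where the share of the 75 was 14.7%. The libraries of days 1, 3 and 7 lay wholly above day −2 in 21.8%, 28.9% and 30.2% of all genes. Among the 75 genes this held for 25, 23 and 20. The libraries lay wholly below day −2 in 22.1%, 27.7% and 30.3% of all genes, and in 1, 4 and 10 of the 75. Without the B libraries the changed genes numbered 16 at day 1, 23 at day 3 and 19 at day 7, whereas leaving out the A libraries gave 1, 4 and 3 and leaving out the C libraries 2, 6 and 5. Over all genes the shares called were 21.8%, 40.8% and 40.8% without B, 4.04%, 18.1% and 20.5% without A, and 6.38%, 21.5% and 25.4% without C. The calls that held under each of these omissions were *Med13l* at day 1, *Med22*, *Polr2f* and *Taf2* at day 3, and *Med14*, *Med22* and *Polr2f* at day 7.

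**Figure D1:**
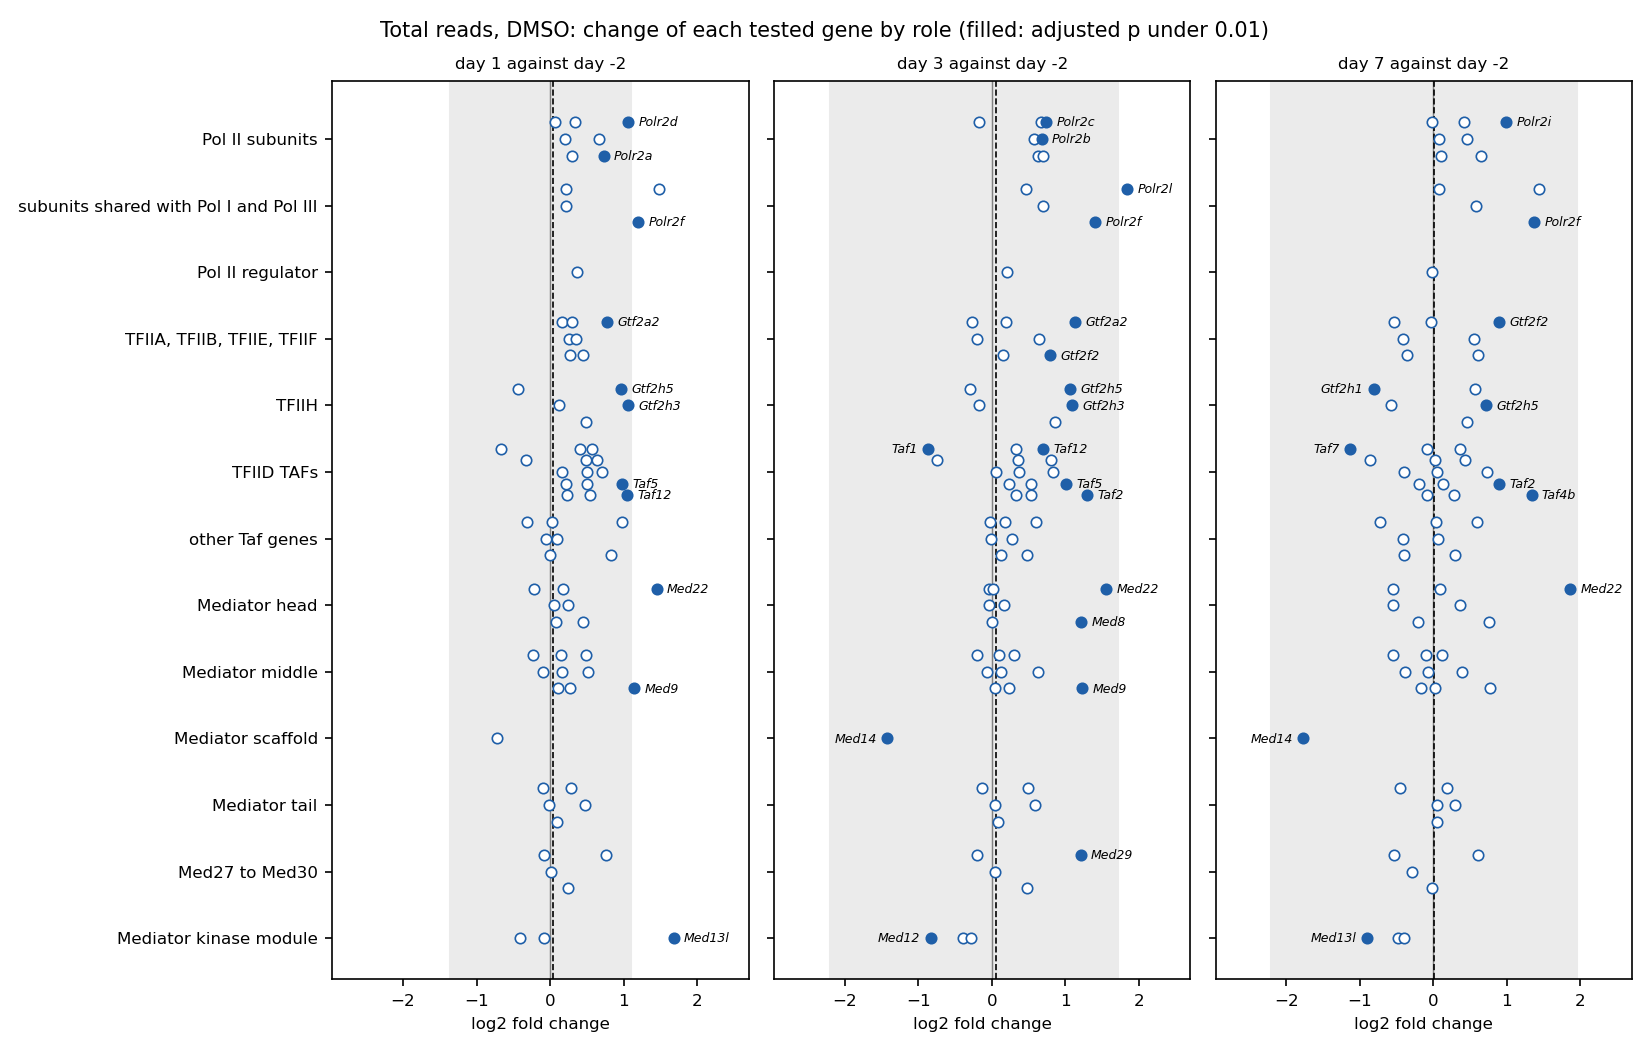
Log2 fold change of each of the 75 tested genes in total reads at days 1, 3 and 7 of DMSO against day −2, with genes grouped by role; filled points passed the edgeR test (adjusted p under 0.01), the dashed line is the median of all genes and the grey band their 10% to 90% range. The Pol II subunits, including those shared with Pol I and Pol III, lie mostly above 0, while *Med14* is the lowest point at all 3 days, at −0.73, −1.42 and −1.77.

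Among the 7 subunits particular to Pol II, the largest one, encoded by *Polr2a* and carrying the repeated C-terminal domain, moved for a short time. Its entry on chromosome 11 (69733997 to 69734409, minus strand, mm10) had 1817, 1921 and 2224 normalized counts in libraries A, B and C at day −2, and 3164, 3344 and 3352 at day 1. At day 3 it had 1695, 1858 and 1731, and at day 7 it had 1922, 2203 and 1739. All 3 libraries of day 1 lay above every other DMSO library. The rise at day 1 was 0.73 ± 0.153 on the log2 scale (SE; edgeR adjusted p = 0.00272) and was followed by a fall of −0.90 from day 1 to day 3 (adjusted p = 0.000347), so that days 3 and 7 did not differ from day −2 by the test (−0.17 and −0.02).

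Of the other subunit genes, 4 changed. *Polr2d*, whose product forms the stalk of the enzyme with POLR2G, rose by 1.06 at day 1 (adjusted p = 0.00629), with 223, 360 and 198 normalized counts at day −2 and 482, 675 and 471 at day 1. At day 3 it had 384, 519 and 367 and at day 7 315, 231 and 296, the last overlapping day −2, and neither day passed. *Polr2c*, an assembly subunit, went from 2228, 2107 and 1907 to 3588, 3102 and 3709 at day 3, a change of 0.74 (adjusted p = 0.00134) with no overlap between the groups. *Polr2b*, the second-largest subunit, rose by 0.68 at day 3 (adjusted p = 0.00907), from between 674 and 870 to between 1113 and 1247. *Polr2i* rose by 0.99 at day 7 (adjusted p = 0.00308), from 461, 370.0 and 579 to 963, 828 and 1007, but its entry is only 40 bases long. *Polr2g* and *Polr2j* passed in no comparison in edgeR, while DESeq2 called *Polr2j* at day 7 (0.66, adjusted p = 0.00938). The median over the 7 subunits was 0.34, 0.67 and 0.42 at days 1, 3 and 7.

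The subunits that Pol II shares with Pol I and Pol III had the highest medians of any role, at 0.71, 1.05 and 0.98 over 4 tested genes. *Polr2f* (chromosome 15, 79151680 to 79151774, plus strand) had 719, 557 and 816 normalized counts at day −2, 1542, 1225 and 2030 at day 1, 1459, 1693 and 2384 at day 3, and 1326, 2412 and 1660 at day 7. Every later library lay above all 3 of day −2, with the widest spread at day 7. The changes were 1.20 ± 0.260, 1.40 ± 0.261 and 1.37 ± 0.261 (adjusted p = 0.00338, 0.000438 and 0.000497). *Polr2l* rose by 1.84 at day 3 (adjusted p = 0.00269), the largest rise of any of the 75 genes at that day, but from 12, 17 and 16 normalized counts to 39.7, 64.7 and 55.9, and it did not pass without the B libraries. *Polr2e* and *Polr2h* passed in no comparison in edgeR or DESeq2, and *Polr2k* averaged 2.58 reads per library and was not tested. *Polr2m*, which encodes a regulator that binds the polymerase, did not pass in total reads.

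Of the 7 genes for TFIIA, TFIIB, TFIIE and TFIIF, *Gtf2a2* and *Gtf2f2* rose. *Gtf2a2*, the small subunit of TFIIA, had 686, 772 and 621 normalized counts at day −2, 1088, 1472 and 1004 at day 1, and 1356, 1763 and 1454 at day 3, so that both later days lay wholly above day −2. The changes were 0.78 ± 0.196 and 1.14 ± 0.197 (adjusted p = 0.00897 and 0.000232). *Gtf2f2*, a TFIIF subunit, rose at days 3 and 7 by 0.79 and 0.89 (adjusted p = 0.00690 and 0.00283), from 256, 281 and 275 to 383, 562 and 458 and then 419, 582 and 505. *Gtf2b*, which encodes TFIIB, did not pass at any day. It had 347, 438 and 351 normalized counts at day −2, 393, 600 and 378 at day 1, 253, 331 and 360 at day 3 and 296, 161 and 325 at day 7, with log2 changes of 0.27, −0.27 and −0.54. The groups of day −2 and day 7 did not overlap, but the day 7 B library, at 161, stood well below the other two.

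TFIIH unwinds promoter DNA and also acts in DNA repair, and 3 of its 5 genes changed. *Gtf2h5*, its smallest subunit, whose entry lies on chromosome 17 (6084653 to 6085488, plus strand), had 3380, 3706 and 3059 normalized counts at day −2 and 6575, 7496 and 5750 at day 1. It then had 6689, 6988 and 7466 at day 3 and 5390, 5994 and 5286 at day 7. All 9 later libraries lay above the 3 of day −2, and the changes were 0.97 ± 0.159, 1.06 ± 0.159 and 0.72 ± 0.158 (adjusted p = 0.000374, 6.23e-05 and 0.00168). *Gtf2h3* rose by 1.06 at day 1 and 1.08 at day 3 (adjusted p = 0.00412 and 0.00162), from 423, 417 and 447 to 843, 1108 and 729 and then 861, 869 and 998. At day 7 its libraries had 641, 364 and 765, overlapping those of day −2. *Gtf2h1* went the other way, falling by 0.81 at day 7 (adjusted p = 0.00593) from 1898, 2351 and 1340 to 1167, 932 and 1087, a call that was lost without the B libraries. *Gtf2h2* and *Gtf2h4* passed at no day in edgeR, while DESeq2 called *Gtf2h4* at day 3 (0.83, adjusted p = 0.00664).

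Of the 16 TFIID genes, 15 were tested, with medians of 0.50, 0.36 and 0.05. *Taf2*, whose product contacts the promoter next to the start site, rose by 1.29 ± 0.179 at day 3 and 0.89 ± 0.178 at day 7 (adjusted p = 2.70e-05 and 0.000701). Its entry on chromosome 15 (55015129 to 55016601, minus strand) had 333, 368 and 421 normalized counts at day −2, 605, 437 and 619 at day 1, 910, 855 and 990 at day 3, and 718, 643 and 725 at day 7. The day 3 libraries were the highest and did not overlap those of any other day. *Taf12*, a histone-fold subunit, rose by 1.05 at day 1 and 0.70 at day 3 (adjusted p = 0.000772 and 0.00683), from between 325 and 430 to between 709 and 807 and then between 514 and 694. *Taf5*, a scaffold of TFIID, rose by 0.97 and 1.01 at the same days (adjusted p = 0.00665 and 0.00266), from 62.7 to 74.0 normalized counts to 126 to 141 and 125 to 164. *Taf4b*, a paralogue of *Taf4* best known from germ cells, rose at day 7 by 1.33 (adjusted p = 0.00116), from 96.1, 70.5 and 52.2 to 172, 210.3 and 171.

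Pulling the other way in TFIID were *Taf1* and *Taf7*, whose products bind each other. *Taf1*, the largest TAF, fell by 0.86 at day 3 (adjusted p = 0.00889), from 745, 1015 and 655 normalized counts to 536, 508 and 283. *Taf7* fell by 1.13 at day 7 (adjusted p = 0.00794), from 135, 257 and 152 to 85.4, 84.3 and 78.5. In both genes the groups did not overlap and the B library was the highest at day −2, and neither call held without the B libraries. *Taf8* had 115, 167 and 112 normalized counts at day −2 and changed by 0.41, 0.06 and −0.19, none of which passed. *Taf7l* averaged 1.54 total reads per library, had no labelled read in any library and was not tested. Of the 7 TAF-named genes that work outside TFIID, none passed at any day in edgeR or DESeq2, while 2, 1 and 2 had an unadjusted p under 0.05 at days 1, 3 and 7. Their medians were 0.03, 0.18 and 0.04.

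The Mediator genes moved in both directions. The scaffold subunit gene *Med14* fell the most of the 75 genes at each day. Its entry on the X chromosome (12675371 to 12677577, minus strand) had 418, 584 and 357 normalized counts at day −2, 256, 353 and 212 at day 1, 154, 195 and 158 at day 3, and 118, 123 and 158 at day 7. The libraries of each later day lay wholly below those of day −2. The changes were −0.73 ± 0.247 at day 1, which did not pass (adjusted p = 0.0453), and −1.42 ± 0.253 and −1.77 ± 0.256 at days 3 and 7, which did (adjusted p = 0.000298 and 3.91e-05).

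*Med22*, a head subunit gene on chromosome 2 (26905267 to 26908082, minus strand), went the opposite way at all 3 days. It had 390, 268 and 479 normalized counts at day −2, 1086, 868 and 1147 at day 1, 1174, 857 and 1313 at day 3, and 1297, 1236 and 1579 at day 7. The lowest later library, at 857, was above the highest of day −2. The changes were 1.45 ± 0.227, 1.56 ± 0.228 and 1.85 ± 0.229 (adjusted p = 0.000243, 4.79e-05 and 7.80e-06). Together with *Polr2f* and *Gtf2h5*, it was 1 of 3 genes that rose at all 3 days in edgeR. The share of all genes that rose at all 3 days is not given here, and it cannot exceed the 7.61% higher at day 1. The 3 comparisons share the libraries of day −2. DESeq2 also called rises of *Med9* and *Taf5* at day 7 (0.78 and 0.75, adjusted p = 0.00523 and 0.00391). It further called *Polr2l* at days 1 and 7 (1.48 and 1.45, adjusted p = 0.00605 and 0.00436). A second head gene, *Med8*, rose at day 3 by 1.22 (adjusted p = 0.000567), from between 668 and 912 normalized counts to between 1485 and 1962. The remaining 5 head genes passed at no day in edgeR or DESeq2, and the median over the 7 was 0.18, 0.02 and 0.09.

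Among the 9 middle genes only *Med9* passed, with rises of 1.15 at day 1 and 1.23 at day 3 (adjusted p = 0.00173 and 0.000421), from 244, 333 and 262 normalized counts to 506, 810 and 540 and then 546, 766 and 657. *Med1* had 1680, 1373 and 1700 at day −2, 2023, 1556 and 2177 at day 1, 1929, 1538 and 2106 at day 3, and 1609, 1204 and 1621 at day 7. Its libraries overlapped between days, and the B library was the lowest at each of the 4. The log2 changes of 0.28, 0.23 and −0.10 did not pass. None of the 5 tail genes passed at any day in edgeR or DESeq2 (medians 0.09, 0.08 and 0.05), while 1, 2 and 1 had an unadjusted p under 0.05. Of *Med27* to *Med30*, which have been placed near the junction of head and tail, *Med29* passed at day 3 with 1.21 (adjusted p = 0.000572), from 129, 84.6 and 100.1 to 222, 227 and 277.

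In the kinase module, *Med13l*, a paralogue of the subunit that joins the module to core Mediator, showed a pulse. Its entry on chromosome 5 (118762834 to 118765438, plus strand) had 5593, 4135 and 5184 normalized counts at day −2, and 18471, 13627 and 15703 at day 1. It then had 4589, 3751 and 3975 at day 3 and 2703, 2452 and 2820 at day 7. The day 1 libraries stood far above all others, and those of day 7 lay below all of the earlier days. The rise by day 1 was 1.68 ± 0.178 (adjusted p = 6.58e-06). It was followed by a change of −1.96 ± 0.180 from day 1 to day 3 (adjusted p = 8.17e-07), and day 7 was lower than day −2 by −0.90 ± 0.175 (adjusted p = 0.000578).

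The paralogue *Med13* had 811, 1272 and 711 normalized counts at day −2, 728, 658 and 719 at day 1, 745, 1041 and 336 at day 3 and 826, 561 and 737 at day 7. Each later group overlapped day −2, its day 3 libraries were widely spread, and its changes of −0.41, −0.40 and −0.40 did not pass. *Med12*, the activator of the module's kinase, had 464, 406 and 580 at day −2, 506, 437 and 429 at day 1, 248, 276 and 293 at day 3 and 334, 411 and 296 at day 7. Day 3 lay below every library of days −2 and 1, with changes of −0.83 ± 0.197 against day −2 (adjusted p = 0.00314) and −0.75 against day 1 (adjusted p = 0.00953). At day 7 the value was −0.48 (adjusted p = 0.0596). *Med12l* averaged 1.29 reads per library and was not tested.

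**Figure D2:**
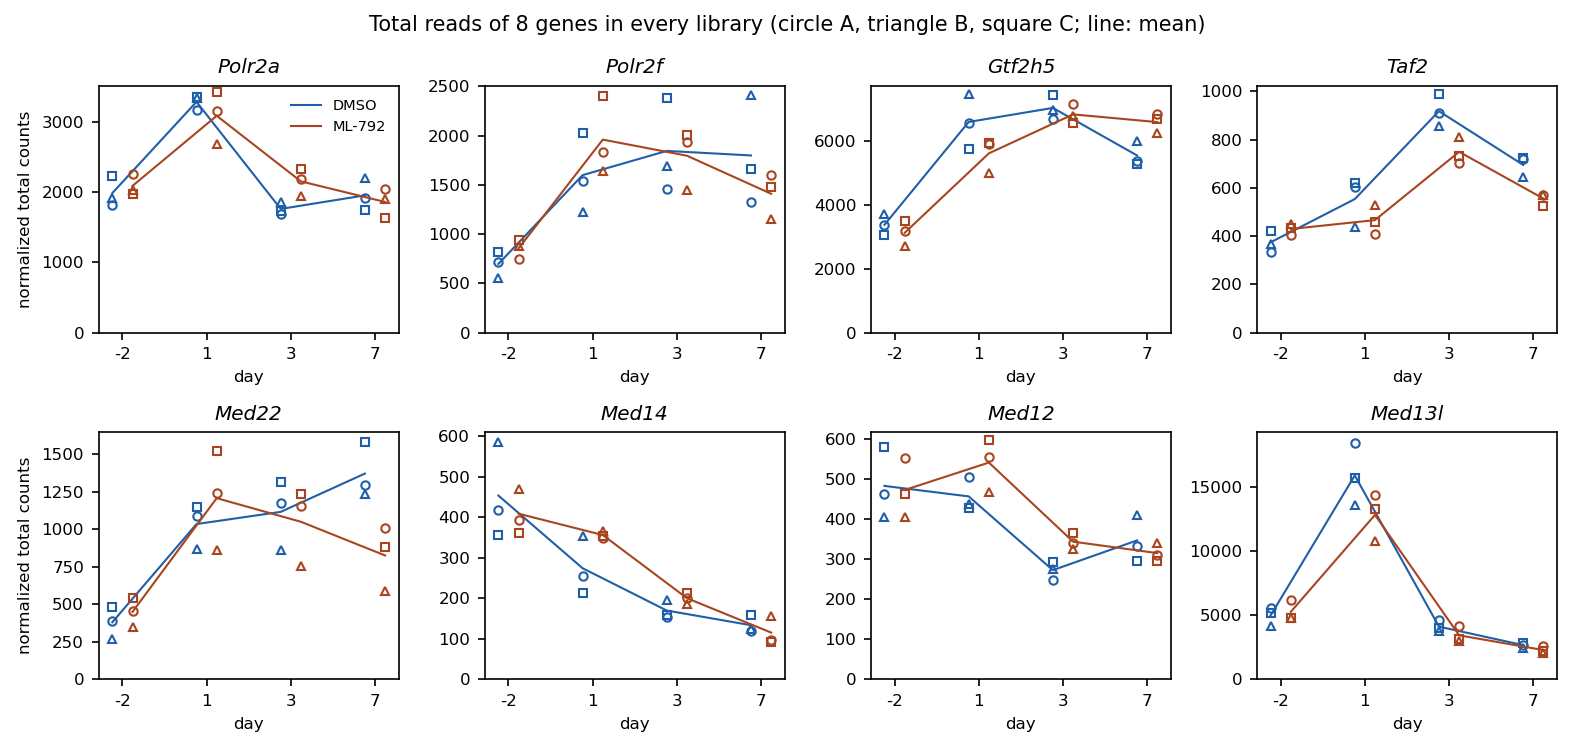
Normalized total counts (linear axes that start at 0) of 8 genes in each library by day (days evenly spaced), DMSO in blue and ML-792 in brown, with circles for library A, triangles for B, squares for C and lines through the group means. In DMSO *Polr2a* and *Med13l* peak at day 1, *Polr2f*, *Gtf2h5* and *Med22* stay above day −2 in all 9 later libraries, and *Med14* is lower in all 9.

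Between adjacent days, *Med13l*, *Polr2a* and *Med12* fell and *Taf2* rose (0.73, adjusted p = 0.00528) from day 1 to day 3, 4 of 75 genes beside 23.2% of all genes. From day 3 to day 7 none of the 75 passed in edgeR, beside 10.8% of all genes. At an unadjusted p under 0.05 there were 17 genes, 16 of them lower at day 7, and DESeq2 called 2. The median over the 75 genes was −0.31 in that interval, with 17 genes above 0, beside a median of −0.02 over all genes, of which 48.4% were above 0. The comparisons of adjacent days share libraries with those against day −2.

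As a summed quantity, the 78 genes took 0.408% ± 0.00871 of counted reads (SD, n = 3) before induction, and 0.610% ± 0.0196, 0.503% ± 0.0171 and 0.392% ± 0.0131 on the 3 later days. *Med13l* alone made up 10.2% of their reads before induction, 21.8% at day 1 and 4.97% at day 7. Without it the shares were 0.367%, 0.477%, 0.471% and 0.373%. All libraries of days 1 and 3 lay above those of day −2, with or without *Med13l*. For the sum with *Med13l*, the two-sided exact permutation p was 0.1 at both days (0.233 after adjustment) and 0.2 at day 7. The value 0.1 is the smallest that 3 against 3 libraries allow. Without *Med13l* the same test gave 0.1 at both days (0.35 after adjustment) and 0.5 at day 7. These shares weight each gene by its read number, and 3′ counts from different entries are not comparable as levels between genes.

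Coding length, which the rule did not use, varied with the changes. Across the 75 genes, the Spearman correlation of coding length with the log2 fold change was −0.225, −0.387 and −0.400 at the 3 days, and over 11804 genes with a coding length it was −0.125, −0.187 and −0.176. In the 25 genes with the shortest coding sequences, 204 to 702 bases, the median change at day 3 was 0.63, with 7 higher and none lower in edgeR, beside a median of 0.33 and 25.9% higher and 14.3% lower among all genes of those lengths. The middle 25, of 711 to 1674 bases, had a median of 0.23 with 5 higher, beside 0.13 and 20.5% higher. The longest 25, of 1761 to 6651 bases, had 0.10 with 3 higher and 3 lower, beside −0.18, 13% higher and 22.5% lower. The medians from short to long were 0.24, 0.29 and 0.10 at day 1, where the middle genes were the highest, and 0.36, −0.01 and −0.02 at day 7. Length was not a term of any test, and since all points share libraries and genes are not independent replicates, the correlations are given as descriptions.

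**Figure D3:**
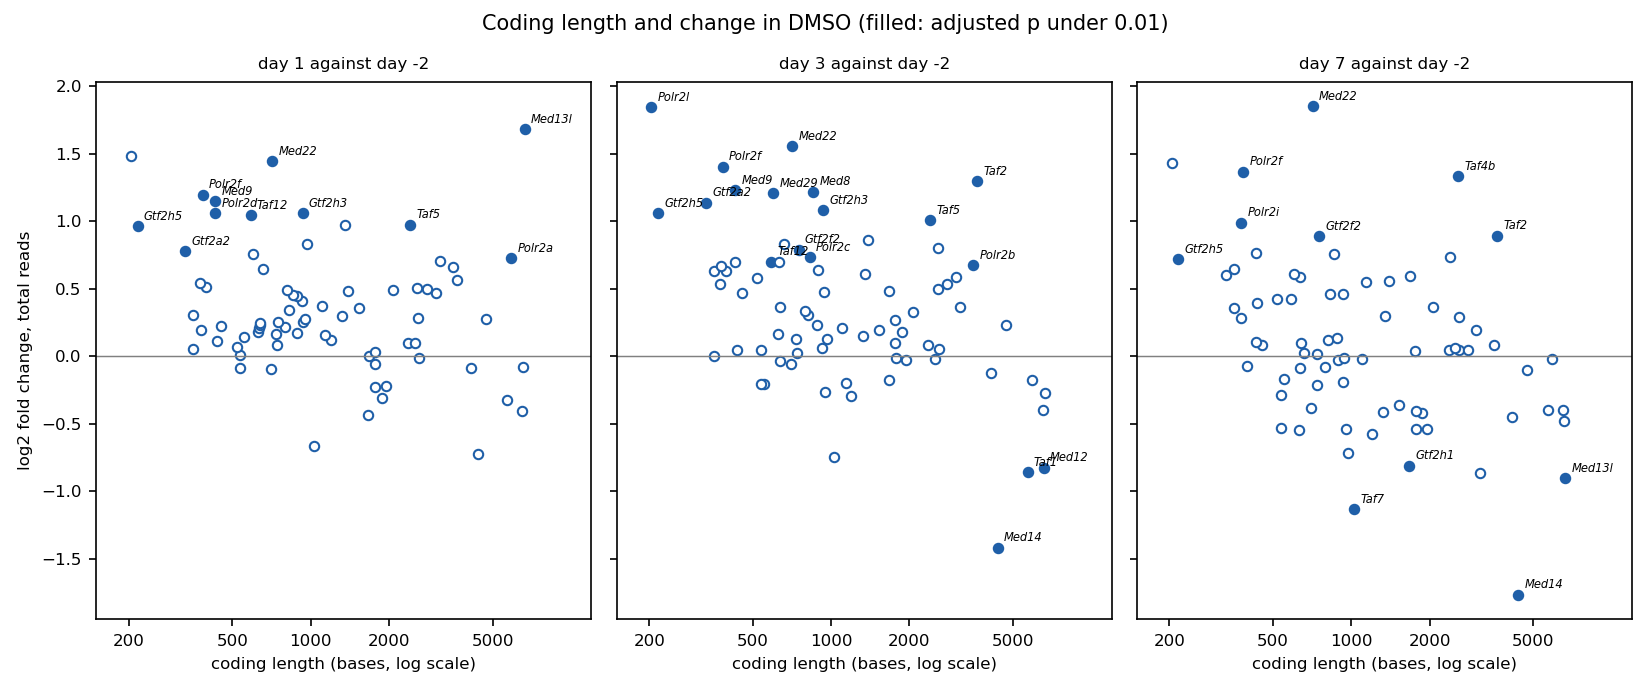
Log2 fold change in total reads at days 1, 3 and 7 of DMSO against day −2, plotted against coding length in bases on a log axis, with 1 point per tested gene and filled points for genes that passed the edgeR test. At day 3 the 3 genes that fell, *Med12*, *Taf1* and *Med14*, are all among the 25 with the longest coding sequences.

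Partners that the symbol rule leaves out were taken as lists. Of 23 tested genes for TBP and its relatives, the kinases and cyclins of TFIIH and Mediator and similar factors, none passed at day 1 in edgeR, with 2 at an unadjusted p under 0.05. At day 3 *Cdk19*, the paralogue of the Mediator kinase, fell by 1.01, and at day 7 *Ercc2*, a TFIIH helicase, rose by 0.92 while *Mnat1*, which assembles the TFIIH kinase, fell by 0.73. Their medians were 0.01, 0.18 and −0.08. Of 14 tested subunit genes of Pol I and Pol III, 2 rose and 1 fell at day 1, 4 rose and 1 fell at day 3, and 2 rose and 1 fell at day 7. *Polr1b*, the second-largest Pol I subunit, rose by 1.09, 1.25 and 0.92, and *Polr3d* fell by 0.77, 0.60 and 0.62.

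Labelled reads addressed which of these mRNAs were being made at each stage. In DMSO, all changes that passed were downward: 4 of 48 tested genes at day 1, 8 at day 3 and 12 at day 7 (edgeR, adjusted p under 0.01), beside 17.9%, 30.6% and 27.4% of 6434 tested genes that were lower. The median log2 change was −0.84, −1.47 and −1.50, beside −1.16, −1.58 and −1.45 over all genes. The share of all counted reads that carried a conversion was itself 3.19% at day −2 and 1.28%, 1.02% and 1.01% at days 1, 3 and 7, so a general drop in labelled reads runs through these numbers. When the labelled counts were scaled to the labelled total of each library in place of the total reads, none of the falls passed at any of the 3 days, and the single call was a rise of *Med13l* at day 1. The members' medians then became 0.18, −0.27 and −0.37, beside −0.16, −0.39 and −0.32 over all genes, of which 5.77%, 12.8% and 12.3% passed in either direction. Without the B libraries 4, 6 and 9 genes passed, without A 0, 1 and 2, and without C 2, 4 and 2, beside 20.2%, 30.6% and 28.1%, 4.59%, 12.7% and 11.1%, and 9.01%, 16.1% and 15.6% of all genes in either direction. The depth is low, since the median library held 589 labelled reads over the 78 genes, and a fold change of single genes below carries wide counting error.

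*Gtf2h1*, *Taf7* and *Taf15* were lower at all 3 days, in comparisons that share the libraries of day −2. The share of all genes lower at all 3 days is not given here, and it cannot exceed the 17.9% lower at day 1. *Gtf2h1*, a core TFIIH subunit, had 102, 49 and 77 labelled reads in libraries A, B and C at day −2, 17, 22 and 9 at day 1, 12, 19 and 4 at day 3, and 14, 18 and 21 at day 7. The groups did not overlap, and the changes in normalized labelled counts were −2.15 ± 0.525, −2.23 ± 0.538 and −1.71 ± 0.518 (adjusted p = 0.00150, 0.000761 and 0.00651). *Taf15* went from 48, 24 and 47 reads to 3, 2 and 9, then 8, 6 and 5, and 4, 8 and 3, with changes of −2.99, −2.17 and −2.59 (adjusted p = 0.00109, 0.00798 and 0.00257). *Taf7* went from 40, 39 and 47 reads to 2, 0 and 7 at day 1, 2, 1 and 7 at day 3 and 1, 7 and 9 at day 7, changes of −3.70, −3.15 and −2.50 (adjusted p = 0.000468, 0.00134 and 0.00638). All day −2 libraries of both genes stood above every later library. Labelled reads lay wholly below day −2 in 47.6%, 57.5% and 55.6% of all genes at days 1, 3 and 7. The same held for 17, 32 and 27 of the 48 genes.

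*Med13l*, whose total reads peaked at day 1, had 404, 244 and 287 labelled reads at day −2 and 322, 257 and 461 at day 1, overlapping groups with a change of 0.22 that did not pass. Scaled by labelled reads the same counts gave a rise of 1.23 (adjusted p = 0.00492), so the call depends on the scaling. At day 3 it had 61, 41 and 51 labelled reads, and at day 7 it had 34, 57 and 62, both groups below all libraries of days −2 and 1. The fall was 2.37 ± 0.363 on the log2 scale from day 1 to day 3 (adjusted p = 4.50e-06), where it was the single gene of the 48 that passed, beside 3.53% of all genes. Against day −2 the changes were −2.15 and −2.23 (adjusted p = 3.90e-06 and 2.05e-06), and these 3 calls held when A, B or C was left out. *Med13* went from 61, 39 and 53 labelled reads at day −2 to 12, 8 and 4 at day 1, and then to 3, 3 and 8 at day 3, with changes of −2.56 and −2.95 (adjusted p = 0.00153 and 0.000353). Its day 7 libraries, at 7, 6 and 20, also lay below day −2, but the change did not pass.

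Further genes passed at a single day or at 2. *Polr2a* had 79, 39 and 81 labelled reads at day −2, 48, 29 and 38 at day 1, 29, 15 and 17 at day 3, and finally 7, 20 and 24 at day 7. It passed at day 7 with −1.58 (adjusted p = 0.00878). *Taf1* had 33, 12 and 34 reads at day −2 and 2 in each library at day 7, a change of −3.27 (adjusted p = 0.00102). *Med14* had 16, 16 and 10 reads at day −2 and 0, 0 and 1 at day 7, a ratio of 0.0308 with an exact 95% counting interval of 0.000762 to 0.181 (edgeR adjusted p = 0.00474). Total reads of *Med14* fell at the same day. *Gtf2a1*, the large TFIIA subunit, had 21, 10 and 11 reads at day −2 and 0, 0 and 1 at day 3, a ratio of 0.0326 (0.000806 to 0.192; adjusted p = 0.00332). *Polr2m* also passed at day 3 (−1.68), *Taf5l* at days 3 and 7 (−2.27 and −2.87), and *Gtf2b* (−2.59), *Med10* (−3.07), *Med26* (−2.60) and *Med28* (−1.91) at day 7. The calls of *Gtf2a1* and *Taf5l* at day 3 and of *Gtf2b*, *Med10*, *Med14* and *Taf5l* at day 7 did not hold without the B libraries.

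**Figure D4:**
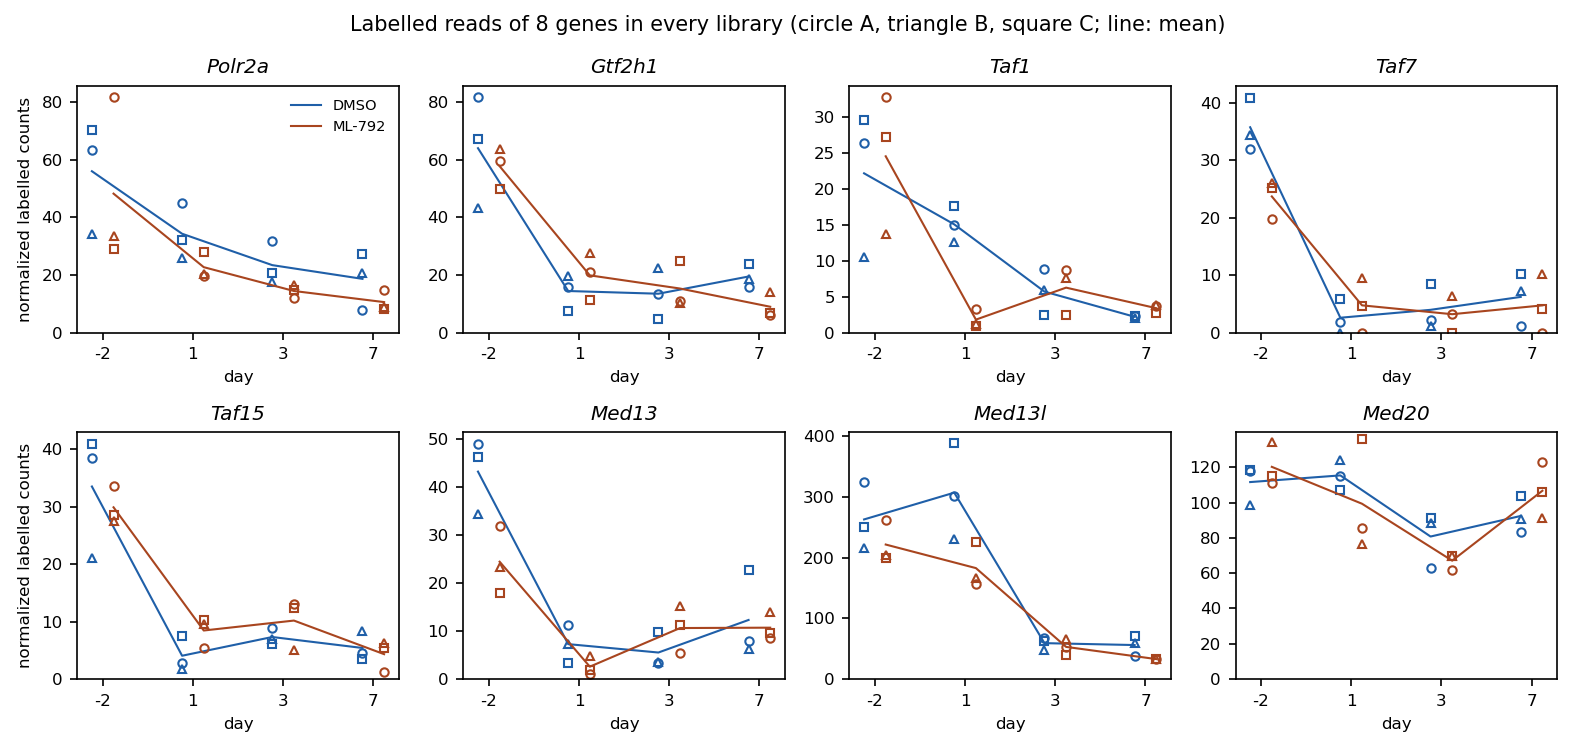
Labelled reads of 8 genes in each library by day (days evenly spaced), normalized by the effective size of the library's total reads, DMSO in blue and ML-792 in brown, with circles for library A, triangles for B, squares for C and lines through the group means. In DMSO *Gtf2h1*, *Taf7* and *Taf15* drop after day −2, *Med13l* is still near its day −2 level at day 1, and *Med20* overlaps day −2 at days 1 and 7.

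Labelled reads as a share of a gene's own total reads differed widely between members. *Med20*, a head subunit gene on chromosome 17 (47623101 to 47624418, plus strand), had shares of 14.9%, 24.4% and 13.6% in libraries A, B and C at day −2, and B was also the highest at days 1 and 3, at 23.1% and 20.7%. Pooled over the 3 DMSO libraries it had 16.2% labelled at day −2 (exact 95% interval 14.7% to 17.7%) and 14.2%, 12% and 12.6% at days 1, 3 and 7. The libraries differed by more than this counting interval. Of all genes with at least 1000 reads, 98.3% had a lower pooled share at day −2. It had 147, 112 and 136 labelled reads at day −2, 123, 138 and 127 at day 1, 57, 75 and 75 at day 3 and 74, 87 and 91 at day 7. The pooled share of *Med26*, which links Mediator to elongation factors, started at 12.2% and went to 5.44%, 4.05% and 2.89%. At the low end was *Polr2f*, with 0.162% at day −2 (0.0442% to 0.415%), a share that 0.332% of genes undercut. *Med13l* went from 5.30% to 1.94%, 1.44% and 2.11%, and *Polr2a* from 2.84% to 1.04%, 1.34% and 0.952%. The median over members with at least 1000 reads was 2.69%, 1.07%, 0.718% and 0.816%, beside 2.28%, 0.998%, 0.766% and 0.813% over all such genes. The share depends on the number of uridines in the sequenced stretch and on background conversions as well as on labelling, and these were not separated. Intervals cover counting error only, since the reads carried no stated molecular identifiers.

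Whether inhibition of SUMO conjugation altered these genes was tested at each day against DMSO. In total reads none of the 75 passed at day −2 or day 1, 4 passed at day 3 and 3 at day 7 (edgeR, adjusted p under 0.1), beside 0%, 7.87%, 15.5% and 11.7% of all genes. At an unadjusted p under 0.05, 1 gene passed at day −2 and 5 at day 1, and DESeq2 called 0 at both days. The medians over the 75 genes were −0.06, −0.05, −0.06 and 0.04, beside −0.01, −0.01, −0.01 and 0.01 over all genes. Without the B libraries 0, 2, 9 and 6 genes passed at the 4 days, whereas without A or without C none passed at any. Over all genes the shares were 0%, 9.69%, 19.1% and 15.2% without B, 0%, 2.23%, 6% and 3.51% without A and 0%, 3.29%, 7.39% and 3.78% without C. In a fit of only the 6 libraries of the day, 0 passed at day 3 and 1 at day 7. With replicate letter as a block in the edgeR fit, 8, 16 and 11 passed at days 1, 3 and 7, so the counts depend on this choice.

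At day 3, *Gtf2b* had 253, 331 and 360 normalized counts in DMSO and 443, 441 and 596 with ML-792, groups that did not overlap, a change of 0.65 ± 0.232 (adjusted p = 0.0840). The Pol I factor gene *Taf1c* had 146, 162 and 128 in DMSO and 244, 243 and 179 with ML-792 (0.61, adjusted p = 0.0613). Another Pol I factor gene, *Taf1b*, went the other way, from 270.2, 262 and 244 to 166, 152 and 174 (−0.66, adjusted p = 0.0639). *Med16*, a tail subunit gene, was also lower, with 282, 240 and 334 in DMSO and 199, 141 and 192 with ML-792 (−0.68, adjusted p = 0.0687). In none of the 4 genes, which were picked by the test on the same values, did the groups overlap. Among all genes the ML-792 libraries lay wholly above DMSO in 12.7% and wholly below in 12.6% at this day.

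At day 7, *Taf4*, a core TFIID subunit gene, had 105, 22.9 and 100.1 normalized counts in DMSO and 182, 140 and 178 with ML-792, a change of 1.14 ± 0.378 (adjusted p = 0.0743) that rested in part on the low DMSO B library and did not pass without B. *Med22*, which had risen in DMSO, had 1297, 1236 and 1579 in DMSO and 1009, 585 and 878 with ML-792 (−0.73 ± 0.252, adjusted p = 0.0870). *Taf15* had 828, 1202 and 974 in DMSO and 575, 735 and 692 with ML-792 (−0.59 ± 0.176, adjusted p = 0.0435). For both of these genes every ML-792 library lay below every DMSO library. The 3 genes were picked by the test on the same values. Among all genes the ML-792 libraries lay wholly below DMSO in 13.02% and wholly above in 13.6% at this day. The 7 adipocyte markers summed to 859648 to 881527 with ML-792 at day 7, above the DMSO range, with 2 of the 7 higher in edgeR and none lower. The 5 fibroblast markers summed to 43849 to 63164, also above the DMSO range, with 3 higher and 1 lower. *Dlk1*, the lower one, had 1005 to 1745 normalized counts with ML-792 and 2877 to 3482 in DMSO. Their part in these differences was not tested.

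In edgeR over all 24 libraries without a block, *Polr2a*, *Med13l* and *Med12* did not pass at any day. *Polr2a* had 2264, 2033 and 1973 normalized counts with ML-792 at day −2, 3156, 2687 and 3423 at day 1, 2188, 1941 and 2333 at day 3 and 2048, 1903 and 1631 at day 7, so its day 1 peak was present with the inhibitor too. At day 3 all 3 ML-792 libraries lay above the DMSO libraries, a change of 0.29 (adjusted p = 0.241). Without the B libraries this change was 0.40 and passed (edgeR, adjusted p = 0.0672). *Med13l* had 14385, 10815 and 13341 with ML-792 at day 1, against 6211, 4770 and 4801 at day −2. *Med12* changed by 0.34 at day 3 without passing. *Gtf2b*, which had passed at day 3, changed by 0.55 at day 7 without passing (adjusted p = 0.195). The members' summed share of counted reads with ML-792 was 0.403%, 0.576%, 0.474% and 0.387% at the 4 days, and the exact two-sided permutation p against DMSO was 0.6, 0.1, 0.2 and 0.7, with 0.1 the smallest possible. The day 1 value was 0.233 after adjustment. Without *Med13l* the same test gave 0.4 at day 1, with overlapping groups (means 0.467% with ML-792 and 0.477% in DMSO).

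Of the genes that had changed most steadily in DMSO, none but *Med22* passed the edgeR test of ML-792 against DMSO. Without the B libraries *Med14* passed at day 1 (0.59, adjusted p = 0.0834) and *Gtf2h5* at day 7 (0.35, adjusted p = 0.0841). *Taf2* then passed at days 1 and 3 (−0.49 and −0.40, adjusted p = 0.0534 and 0.0823). None passed without A or without C. Changes between days within ML-792 were not tested, and the courses are given as counts. *Med14* had 393, 470 and 362 normalized counts with ML-792 at day −2, 349, 365 and 353 at day 1, 199, 186 and 213 at day 3 and 97.0, 155 and 92.3 at day 7, again lowest at the last day. *Polr2f* had 749, 878 and 940 before induction, then 1839, 1643 and 2398, 1935, 1448 and 2005, and 1603, 1151 and 1476, all 9 later libraries above the first 3. *Gtf2h5* had 3178, 2719 and 3492, then 5905, 5006 and 5957, 7158, 6810 and 6567, and 6848, 6246 and 6715. At day 7 its ML-792 libraries lay above all DMSO libraries without passing (0.25 ± 0.137, adjusted p = 0.362). *Taf2* had 405, 449 and 434, then 411, 531 and 458, 705, 813 and 731, and 572, 571 and 524. Its ML-792 libraries lay below the DMSO libraries at days 3 and 7, with changes of −0.29 ± 0.149 and −0.32 ± 0.150 that did not pass (adjusted p = 0.281 and 0.248).

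**Figure D5:**
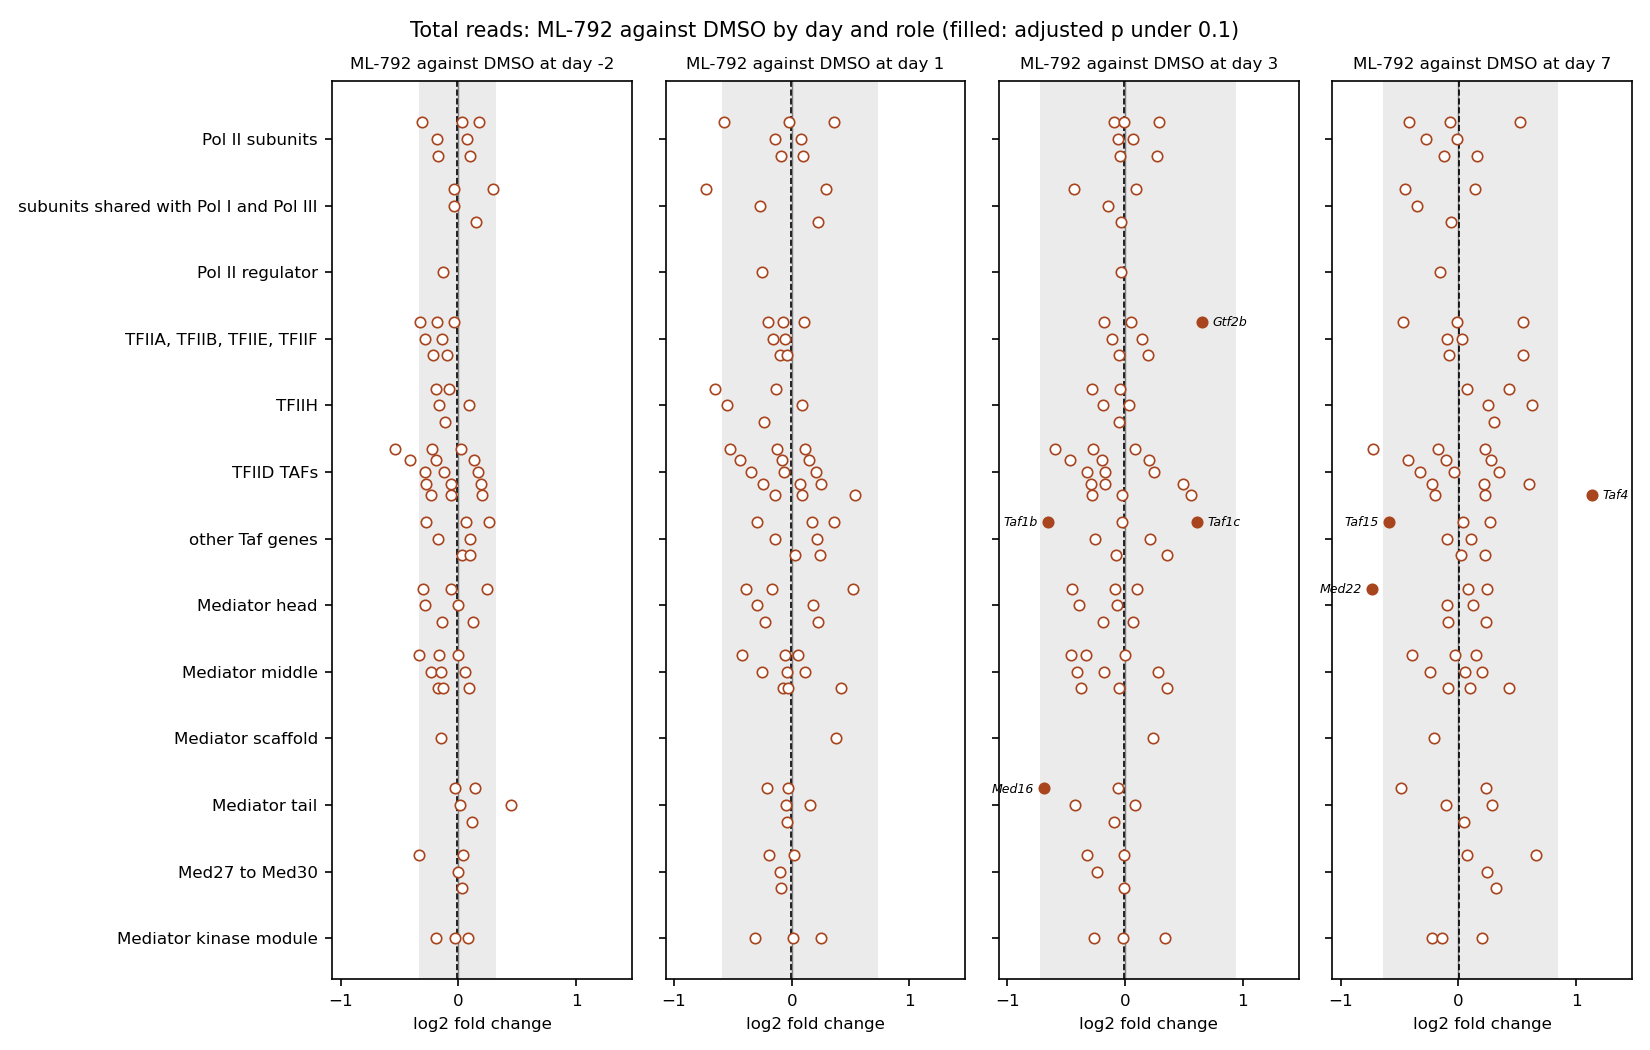
Log2 fold change of each of the 75 tested genes in total reads with ML-792 against DMSO at days −2, 1, 3 and 7, with genes grouped by role; filled points passed the edgeR test (adjusted p under 0.1), the dashed line is the median of all genes and the grey band their 10% to 90% range. Filled points appear at days 3 and 7 only, 4 and 3 in number, on both sides of 0.

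The course over the days differed between ML-792 and DMSO for *Taf15*, the single gene of the 75 that passed, beside 11.9% of all genes (edgeR F-test of the interaction of day and treatment, adjusted p = 0.0743). DESeq2 called 5 genes and edgeR with replicate letter as a block 9, and none passed without A or without C. Its ML-792 effects over the 4 days in order were 0.03, 0.36, −0.26 and −0.59. In DMSO its libraries had 572, 817 and 601 normalized counts at day −2, 647, 623 and 721 at day 1 and 841, 1139 and 794 at day 3. With ML-792 they had 623, 757 and 647, then 749, 960.5 and 847, and then 748, 817 and 758. The inhibitor libraries were thus the higher ones at day 1 and the lower ones at day 7, with overlapping groups at days −2 and 3.

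Among the listed partners and the Pol I and Pol III subunit genes, *Polr3e*, which encodes a Pol III subunit, was higher with ML-792, by 1.49 at day 3 and 2.40 at day 7 (adjusted p = 0.000114 and 4.17e-07). *Polr3c* changed by −0.73 at day 7, *Mnat1* by −0.54 at day 3 and *Tbpl1*, which encodes a TBP relative, by −0.58 at day 7.

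In labelled reads *Taf1* was the only gene of the 48 that passed with ML-792, at day 1, where it had 16, 14 and 21 labelled reads in DMSO and 3, 1 and 1 with ML-792. The groups did not overlap, with ML-792 wholly lower as in 11.9% of all genes, and the change was −2.99 ± 0.801 (adjusted p = 0.0627). The ratio of normalized reads was 0.117, with an exact counting interval of 0.0365 to 0.292. The call did not hold without A, without B or without C. At days −2, 3 and 7 none passed in edgeR, with 0, 2 and 4 genes at an unadjusted p under 0.05 and 0, 0 and 2 by DESeq2, the last being *Med7* and *Polr2m*. No interaction passed, with 2 genes at an unadjusted p under 0.05 and 0 by DESeq2. Over all genes 0%, 0.979%, 1.15% and 0.948% passed at the 4 days and 0.28% in the interaction. The conversion share over the members' reads was 3.21% ± 0.544, 1.40% ± 0.179, 0.948% ± 0.0886 and 1.11% ± 0.0836 in DMSO (SD, n = 3), and averaged 2.78%, 1.10%, 0.926% and 0.925% with ML-792.

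The tables list several 3′ entries for 37 of the 78 genes, and the values above are those of the entry with the most reads. Of 78 other entries that could be tested, 51 overlapped the chosen one. The other entries of *Med14* were also lower at day 7, between −1.43 and −2.35. For *Med1* an entry that does not overlap the chosen one was higher at day 7 by 1.99 ± 0.567 (adjusted p = 0.0096), against −0.10 for the chosen entry. The other entries of *Taf2* did not pass at day 7. *Taf6l* overlaps *Tmem179b* on the same strand, so reads of these 2 genes cannot be told apart there, and the chosen entries of *Gtf2f1* and *Med25* are only 26 and 33 bases long.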

How the data were processed

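Per the labels, RNA from 3T3-L1 cells was made into 3′ QuantSeq libraries and base-called with bcl2fastq 2.17.1.14 (submitters' processing notes). The authors mapped reads to mm10 and counted total and T-to-C converted reads per RefSeq 3′UTR entry with SlamDunk. The deposited counts were not normalized and cover 91830 entries. Columns of 6 libraries that match no sample were not used. The entry with the highest mean total count stood for each gene. Total counts were scaled by TMM over the 24 libraries, and labelled counts by the same effective library sizes. Entries with low counts (minimum count 10, minimum total 15) were removed, which left 26563 total and 10589 labelled entries. Tests were edgeR 4.0.16 quasi-likelihood fits in R 4.3.3 with limma 3.58.1, adjusted by Benjamini-Hochberg over all entries tested. A prior count of 2 was added to log2 values outside these fits, such as the members' median log2 count per library. The time course used the 12 DMSO libraries (threshold 0.01), and ML-792 and interaction tests used all 24 (0.1). A normalized count is the count divided by the library's effective size, times the mean effective size. Named were up to 10 called members per direction and comparison, plus *Polr2a*, *Gtf2b*, *Taf7l*, *Taf8*, *Med1*, *Med12*, *Med13* and *Med14*; other members are named by role. Alternatives were DESeq2 1.42.0, no filter, 1 entry per gene, scaling by labelled reads, a replicate-letter block, fits per day and leaving out each letter. The scripts were tested on simulated data. The members and lists were chosen with earlier results of these data known.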

Additional observations from a re-analysis of the deposited data

Results flagged for a closer look

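For *Taf15* in total reads, the effect of ML-792 differed between the days in the test of the difference itself (edgeR interaction of day and treatment over 24 libraries, adjusted p = 0.0743). The log2 effects were 0.03, 0.36, −0.26 and −0.59 at days −2, 1, 3 and 7. The call was lost without the A libraries and without the C libraries, and the cause of the difference was not tested.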

How the results depend on the processing

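No call turned its direction under any alternative. Of 1012 recomputed fold changes of single genes, 806 kept direction and call, 185 lost the call, 6 gained it and 15, none of them called, changed sign. With A, B or C left out, these ranged in total reads from −0.19 to 0.12 for *Med12* at day 1, −0.038 to 0.23 for *Taf8* at day 3, −0.43 to 0.20 for *Taf8*, −0.61 to 0.038 for *Med13* and −0.14 to 0.14 for *Polr2a* at day 7, and in labelled reads from −0.16 to 0.18 for *Taf8* at day 1. With 1 entry per gene *Taf8* at day 3 was −0.023 in total reads. Scaling by labelled reads turned *Gtf2b* (0.24), *Med1* (0.50), *Polr2a* (0.32) and *Taf8* (0.71) at day 1, *Med1* (0.16) and *Taf8* (0.50) at day 3 and *Taf8* (0.49) at day 7, and 25 of 41 named labelled results lost their call.

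Leaving out A, B or C gave, in total reads, 1 to 16 genes at day 1, 4 to 23 at day 3, 3 to 19 at day 7, 1 to 6 for day 3 against day 1, 0 to 4 for day 7 against day 3, 0 to 2, 0 to 9 and 0 to 6 for ML-792 at days 1, 3 and 7, and 0 to 5 for the interaction. In labelled reads it gave 0 to 4, 1 to 6 and 2 to 9 at days 1, 3 and 7 and 0 for ML-792 at day 1. The median ranged from −0.18 to 0.025 for ML-792 at day −2 in total reads and from −1.10 to −0.50 at day 1 in labelled reads. The replicate letters were not taken as pairs, since residuals of like-lettered libraries in total reads did not correlate above 0.1 in every pair (−0.18 to 0.514). Their means were 0.107, 0.288 and 0.180 for A, B and C, against −0.0941 between letters, a hint from the data that letters share some spread. The replicate block gave in total reads 18 genes at day 7, 4 for day 7 against day 3, 8, 16 and 11 for ML-792 at days 1, 3 and 7 and 9 for the interaction, and 1 for labelled ML-792 at day 7.

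DESeq2 gave 17 at day 7, 2 for day 7 against day 3, 5 for ML-792 at day 7 and 5 for the interaction in total reads, and 2 for labelled ML-792 at day 7. Without a filter there were 2 for day 7 against day 3, 0 for ML-792 at day 3 and 2 for the interaction in total reads, and 5 at day 3 and 0 for ML-792 at day 1 in labelled reads. With 1 entry per gene ML-792 at day 7 gave 5, the interaction 3 and the day 1 median 0.21. Fits of a single day gave 0 and 1 for ML-792 at days 3 and 7 in total reads, and 0 and 2 at days 1 and 7 in labelled reads. Scaled by labelled reads, 1, 0 and 0 genes passed at days 1, 3 and 7, the 1 being a rise of *Med13l*, and 0 for ML-792 at day 1, with medians of 0.18, −0.27, −0.37 and, for ML-792 at day 7, −0.083, against −0.17 there without a filter. The median of the members' own labelled shares was 0.829% and 0.970% in DMSO at days 3 and 7, and 3.04%, 0.854% and 0.856% with ML-792 at days −2, 3 and 7. The alternatives for both comparisons of adjacent days were chosen after seeing the data. The causes of these differences were not tested.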
